A study of Mus musculus with 5 samples.

Results

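The genes described here are 28 of the 22532 genes counted in the nuclei of the mouse central amygdala (CeA), and they were chosen by name as the parts of synapses that use GABA or glycine. They comprise the enzymes that make GABA (Gad1, Gad2), its vesicular transporter (Slc32a1), a plasma membrane transporter (Slc6a11), the enzymes that break it down (Abat, Aldh5a1), 11 subunits of the GABA-A receptor, both subunits of the GABA-B receptor, 3 subunits of the glycine receptor, the scaffold and auxiliary proteins Gphn, Nlgn2, Lhfpl4 and Shisa7, and the chloride transporters Slc12a2 and Slc12a5. The rule that lists them uses names and no measured value.

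The study asked how the cell types of the CeA differ and what fasting changes in them. Nuclei from C57BL6 mice were sequenced in 3 libraries from fed mice and 2 from fasted mice, each pooled from 1 male and 1 female mouse. The libraries fed 1, fed 2, fasted 1 and fasted 2 came from mice of 8 weeks, with fasting of 20 hours for fasted 1 and 21 hours for fasted 2. The library fed 3 came from Htr2a-Cre mice of 12 weeks that carried AAV-DIO-mCherry, a virus whose mCherry depends on Cre. Genotype, virus and age therefore cannot be told apart from that library. A figure legend of the study puts 1 fed dataset in a preparation batch of its own. It was taken to be fed 3, whose batch then cannot be told apart from it either. Pooling leaves no measure of the spread between single animals, and the libraries are the replicates throughout.

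GABA is made from glutamate in inhibitory neurons, packed into vesicles and released, and it is then taken up again into neurons and astrocytes. The GABA-A and glycine receptors are chloride channels of 5 subunits, and the choice of subunits sets their kinetics, their place at the synapse or outside it and their drug sensitivity. The GABA-B receptor is an obligate dimer that acts through G proteins. Nearly all neurons of the CeA are inhibitory and contact one another, so these genes are at work on both sides of many of their synapses.

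The files held 23839 barcodes, of which 7161 were kept as nuclei with 500 to 8000 genes and less than 0.8% of mitochondrial unique molecular identifiers (UMIs, 1 per counted RNA molecule). The kept nuclei held between 9763452 and 29703855 UMIs per library, with a median of 6608 to 16367 UMIs per nucleus, and any pair of libraries shared at most 1 barcode. Nuclei were sorted into gates, that is by minimum UMI counts of marker genes that are not among the 28 genes. The inhibitory gates held 1002 nuclei for Rarb, 444 for Prkcd, 313 for Foxp2, 262 for Dnah5 with Vipr2, 236 for Calcrl, 176 for Sst, 86 for Nkx2-1 and 45 for Tac1. The Nkx2-1 gate had at least 10 nuclei in 4 libraries and the Tac1 gate in 2 (fed 3 and fasted 2), and only those libraries were used for them. In all, 6092 neurons had no Slc17a7 UMI and counted as inhibitory, whether or not they met a gate. Of all neurons, 3058 met no gate and 517 met more than 1, and both were left out of the gates. Calcrl was given precedence over Prkcd, Dnah5 with Vipr2 over Prkcd and Sst, and Nkx2-1 over Sst, so that a nucleus of the former could also hold the latter. The Dnah5 gate held Nts and Tac2 at means of 66.6 and 172 CPM. CPM is the count of a gene scaled to the same total of UMIs in each gate and library. The Sst gate held Ebf1 at 1059 CPM, the Calcrl gate Cdh9 at 336 CPM and the Nkx2-1 gate Lhx6 at 68.4 CPM. These were taken as second markers of the gates, and their levels in other gates are not given. The study names Ebf1 as a marker of its Il1rapl2 cluster that is also expressed elsewhere. The study's Tac1 cluster was also marked by Sst, so the Sst gate may hold such cells with under 2 Tac1 UMIs. The Rarb gate held Pde1c at 541 CPM. Rarb was the study's marker of the amygdalostriatal area and Pde1c that of the IPAC, an interstitial nucleus beside the anterior commissure, so the gate may hold cells of both. In the study Foxp2 marked intercalated cells and Nkx2-1 interneurons of the basolateral amygdala. The Rarb, Foxp2 and Nkx2-1 gates therefore stand for types that the study placed outside the CeA. No gate was made for the Il1rapl2 cluster, the study's largest in the medial part of the CeA. The Calcrl gate also held Prkcd at 334 CPM, as its nuclei were not required to lack it.

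Of the 28 genes, 26 had enough counts for a test across the 8 inhibitory gates, in which each gate was set against the mean of the other gates with the library as a block (edgeR quasi-likelihood test, adjusted p under 0.05 over 10027 genes). Gabre and Gabrq, the epsilon and theta subunits of the GABA-A receptor, were not tested and had 30 and 67 UMIs over the inhibitory gates. In at least 1 gate, 23 of the 26 genes differed from the other gates. Gphn, Lhfpl4 and Slc32a1 differed in none. Of the 208 gene and gate pairs, 90 passed (43.3%), 52 of them higher and 38 lower in the gate, whereas 19.9% of the pairs of all genes tested passed. The 26 genes had a median level of 7.09 on the log2 CPM scale against 5.11 for all genes tested. Of the 90 pairs, 55 passed under each of up to 12 alternative analyses and 35 were lost under at least 1; the losses are given beside the values below.

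By gate, 16 of the 26 genes passed in the Dnah5 gate, 11 higher and 5 lower, where 26.7% of all genes tested passed (15% higher and 11.7% lower). In the Nkx2-1 gate 16 passed, 8 higher and 8 lower, against 27.2% of all genes (14.7% and 12.5%). The Rarb gate had 13, of which 9 were higher and 4 lower, against 17.9% (11.5% and 6.4%). The Prkcd gate had 12, of which 5 were higher and 7 lower, against 30.7% (16.8% and 13.8%), and the Foxp2 gate 12, likewise 5 and 7, against 19.1% (11.3% and 7.87%). In the Calcrl gate 11 passed, 7 higher and 4 lower, against 22.3% (13.2% and 9.19%). The Sst gate had 8, of which 5 were higher and 3 lower, against 10.4% (7.02% and 3.39%), and the Tac1 gate 2, both higher, against 4.45% (2.54% and 1.9%). Without fasted 2, 5 genes passed in the Sst gate and 0 in the Tac1 gate, which then had 1 library, and with nuclei thinned to 4000 UMIs 8 passed in the Nkx2-1 gate. The median size of the difference was 0.50 on the log2 scale in the Dnah5 gate against 0.25 for all genes tested there. It was also larger in the Nkx2-1 gate (0.46 against 0.35), the Foxp2 gate (0.30 against 0.22), the Rarb gate (0.27 against 0.16) and the Sst gate (0.27 against 0.20). It was smaller than for all genes in the Calcrl gate (0.17 against 0.23) and the Tac1 gate (0.30 against 0.36). The Prkcd gate gave 0.24 against 0.24. In the Prkcd gate the typical difference of these genes therefore equalled that of all genes. The Nkx2-1 gate carried oligodendrocyte markers at 108 to 146 CPM in sum, mostly St18 (121 CPM), with 5 of the 7 markers at 0 in some library; their part in its values was not tested.

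**Figure D1:**
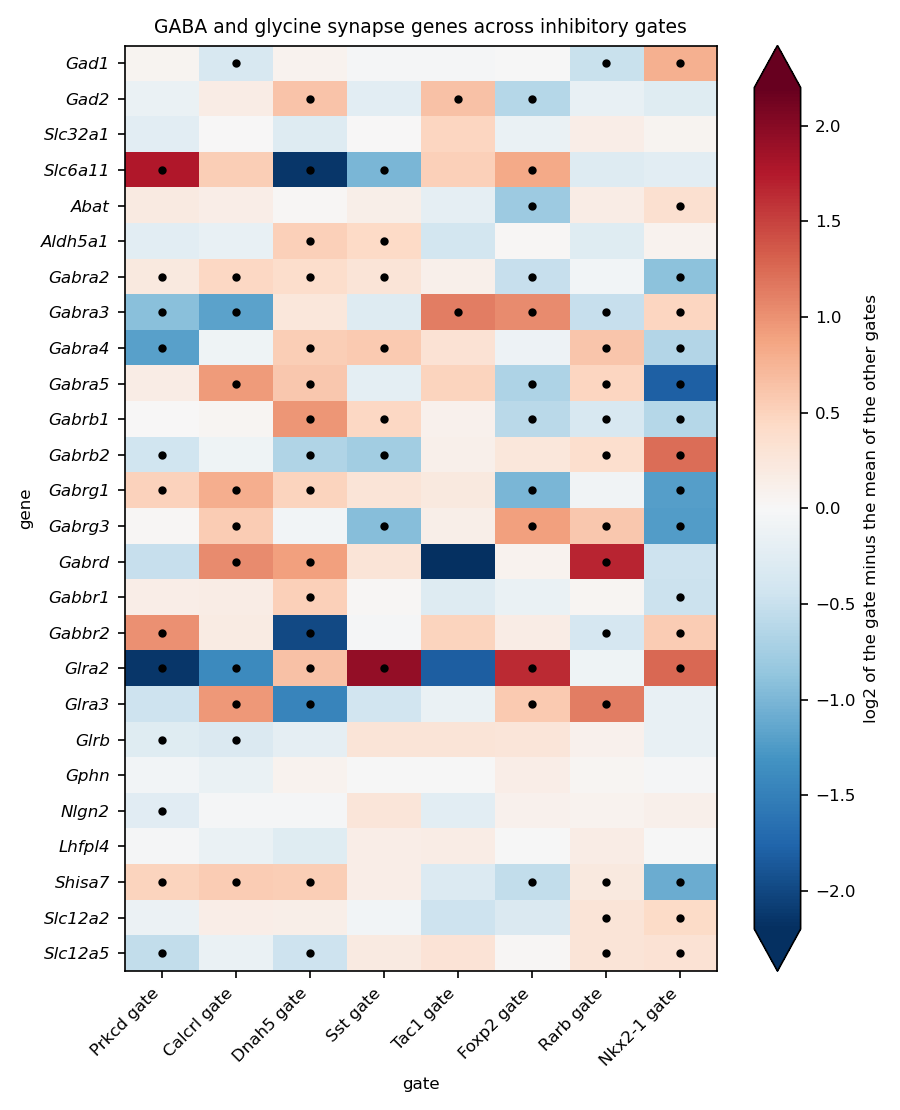
Log2 difference of each inhibitory gate (columns) from the mean of the other inhibitory gates for the 26 tested genes (rows), in colour from blue (lower) to red (higher), with a black dot where the adjusted p was under 0.05. Of the blue cells with a dot, the 3 lowest are Slc6a11 in the Dnah5 gate (-2.15), Glra2 in the Prkcd gate (-2.14) and Gabbr2 in the Dnah5 gate (-1.99).

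Slc6a11 and Glra3 were both low in the Dnah5 gate, and their promoters are shown as 2 examples of genes of different function with that pattern. Gabbr2 (log2 -1.99), Gabrb2 (-0.66) and Slc12a5 (-0.46) were also called lower there, and their promoters are not shown. The windows are the 250 bases before the annotated start in RefSeq (GRCm38.p6), chr6:114130991-114131240 on the plus strand for Slc6a11 and chr8:55940168-55940417 on the plus strand for Glra3. Capitals mark the GC box GGGCGG or its reverse complement CCGCCC, searched on both strands.

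Slc6a11: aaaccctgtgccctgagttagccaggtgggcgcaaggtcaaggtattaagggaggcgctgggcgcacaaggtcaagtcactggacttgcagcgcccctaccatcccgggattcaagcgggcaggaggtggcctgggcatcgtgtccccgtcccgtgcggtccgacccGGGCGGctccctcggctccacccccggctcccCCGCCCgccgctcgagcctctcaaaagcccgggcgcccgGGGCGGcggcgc

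Glra3: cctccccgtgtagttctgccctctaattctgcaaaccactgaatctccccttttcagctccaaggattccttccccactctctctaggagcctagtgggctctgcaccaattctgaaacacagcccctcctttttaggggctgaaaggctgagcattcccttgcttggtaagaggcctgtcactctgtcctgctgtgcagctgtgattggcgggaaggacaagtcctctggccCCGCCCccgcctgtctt

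The Slc6a11 window held 3 copies and the Glra3 window 1. A window was listed for 25 of the 28 genes, and 18 of these held the motif in a window, while 35.4% of the 27025 genes in the table did. Counted by window, 32.7% of all 32851 windows held it. A match is a match of letters and was not tied to any measured binding here.

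The enzymes of GABA synthesis, Gad1 and Gad2, each passed in 3 inhibitory gates. Gad1 averaged from 119 ± 14.4 CPM in the Rarb gate (SD, n = 5) to 272 ± 23.7 CPM in the Nkx2-1 gate (n = 4). It was higher in the Nkx2-1 gate by 0.78 on the log2 scale and lower in the Rarb gate (-0.49) and the Calcrl gate (-0.35). The Nkx2-1 call was lost with stricter gates (adjusted p = 0.173), and the Calcrl call with nuclei thinned to 4000 UMIs or without fed 3 (adjusted p up to 0.110). Gad2, the isoform tied to synaptic vesicles, averaged 457 ± 46.4 CPM in the Dnah5 gate (n = 5) and 213 ± 19.4 CPM in the Foxp2 gate (n = 5), and these differed from the other gates by 0.62 and -0.63 on the log2 scale. Its 5 libraries ran from 401 to 509.6 CPM in the Dnah5 gate and from 191 to 244 CPM in the Foxp2 gate, without overlap. In the Tac1 gate, with 2 libraries, Gad2 was higher by 0.64, a call lost under 3 of 11 alternatives, among them leaving out fasted 2 (adjusted p up to 0.301). Slc32a1 averaged between 17.4 and 27.3 CPM over the gates and passed in none.

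Slc6a11 encodes the transporter GAT-3, which clears GABA and is best known from astrocytes. It held 54.9, 58.6 and 62.0 CPM in the Prkcd gate of fed 1, 2 and 3 and 39.8 and 44.8 CPM in fasted 1 and 2. In the Dnah5 gate the same libraries gave 9.63, 1.58, 3.68, 5.72 and 4.84 CPM. Each library of the Prkcd gate lay above each library of the Calcrl, Dnah5, Sst, Rarb, Nkx2-1 and Tac1 gates, and 1 Foxp2 library (fed 1, 41.6 CPM) reached its range. The Dnah5 libraries lay below those of every other gate but Sst. Against the other inhibitory gates Slc6a11 was 3.38-fold higher in the Prkcd gate (SE of the log2 value 0.157) and 4.43-fold lower in the Dnah5 gate (log2 -2.15, SE 0.315). It was also higher in the Foxp2 gate by 0.84 on the log2 scale, a call lost without fed 3 (adjusted p = 0.0511), and lower in the Sst gate (-1.01), a call lost under 6 of 12 alternatives, among them without fed 1, fed 2 or fasted 1, with adjusted p up to 0.352. After thinning to 4000 UMIs, 16.5 ± 4.65% of nuclei in the Prkcd gate had a Slc6a11 UMI (SD, n = 5). The shares were 1.60 ± 1.63% in the Dnah5 gate and 3.11 ± 4.54% in oligodendrocyte precursors. The precursors were assumed to show the level that free RNA gives, which was not measured. By level, Slc6a11 averaged 12.4 CPM in precursors, 17.4 CPM in oligodendrocytes and 17.3 CPM in the excitatory gate. The mean share in the Dnah5 gate lay below that of the precursors, and low expression there was not told apart from free RNA. Thinning left out nuclei with fewer than 4000 UMIs. Without thinning, and with those nuclei kept, the shares were 41.8%, 5.17% and 8.92%.

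Of the enzymes of GABA breakdown, Abat, the transaminase, stood lower in the Foxp2 gate, at 133 ± 18.0 CPM (n = 5) against a mean of 234 CPM in the other gates (log2 -0.80). Its 5 Foxp2 libraries held 113 to 157 CPM, and the other gates held 167 CPM or more in each library. It was slightly higher in the Nkx2-1 gate (0.35), a call lost under 3 of 12 alternatives, among them leaving out fasted 2 or fed 3 (adjusted p up to 0.176). Aldh5a1, which carries out the next step, was higher by 0.52 in the Dnah5 gate, a call lost with thinned nuclei or in the fed libraries alone (adjusted p up to 0.128), and by 0.44 in the Sst gate, a call lost under 9 of 12 alternatives, among them without any 1 library but fed 3 (adjusted p up to 0.351).

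The alpha subunits of the GABA-A receptor help set its affinity and place, and each had its own pattern. Gabra5, common in receptors outside synapses, held 37.5, 24.5, 13.2 and 22.9 CPM in the Nkx2-1 gate of fed 2, fed 3, fasted 1 and fasted 2. In the Calcrl gate the 5 libraries gave 128, 137, 123, 190.2 and 133 CPM in the order fed 1 to 3 and fasted 1 and 2. The Nkx2-1 libraries lay below those of every other inhibitory gate, and the Calcrl libraries overlapped with those of the Dnah5, Prkcd and Tac1 gates. The differences were -1.79 (SE 0.247) in the Nkx2-1 gate and 0.94 (SE 0.125) in the Calcrl gate on the log2 scale. The Nkx2-1 call was lost with thinned nuclei (adjusted p = 0.0641). Gabra5 was also higher in the Dnah5 gate (0.60). The call in the Foxp2 gate (-0.68) was lost with thinned nuclei or stricter gates (adjusted p up to 0.886), and that in the Rarb gate (0.48) with thinned nuclei (adjusted p = 0.0611).

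Gabra4 pairs with the delta subunit in many extrasynaptic receptors. It held 44.2, 54.5, 41.8, 50.1 and 56.4 CPM in the Prkcd gate of fed 1 to 3 and fasted 1 and 2. In the Rarb gate it held 147, 132, 124, 131 and 161 CPM. The Prkcd libraries were below those of all other inhibitory gates except 1 Nkx2-1 library (fed 3, 55.0 CPM), and no Rarb library overlapped with them. Gabra4 was lower in the Prkcd gate by 1.19 on the log2 scale (log2 -1.19, SE 0.120) and higher in the Rarb gate by 0.60 (SE 0.0928) and the Dnah5 gate by 0.55. Calls in the Nkx2-1 gate (-0.65) and the Sst gate (0.57) were lost with thinned nuclei (adjusted p up to 0.456 and 0.0632), and the Sst call also without fasted 2.

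Gabra3 held 46.6, 60.7, 34.1, 20.5 and 56.9 CPM in the Calcrl gate of fed 1 to 3 and fasted 1 and 2. In the Foxp2 gate the libraries gave 133, 241, 190.1, 130.4 and 165 CPM. The Foxp2 libraries lay above all libraries of the Calcrl, Prkcd, Rarb and Sst gates and overlapped with the Dnah5, Nkx2-1 and Tac1 gates. The differences on the log2 scale were -1.17 (SE 0.155) in the Calcrl gate, -0.93 in the Prkcd gate and 1.04 (SE 0.120) in the Foxp2 gate. Weaker calls were made in the Rarb gate (-0.50, lost under 2 of 12 alternatives), the Nkx2-1 gate (0.48, lost under 4 of 12, among them without fasted 2 or fed 2) and the Tac1 gate (1.13, lost under 3 of 11, among them without fasted 2), with adjusted p up to 0.317, 0.923 and 0.55. Gabra2, a synaptic alpha subunit, was higher in the Calcrl gate (0.45), the Dnah5 gate (0.39) and the Prkcd gate (0.22) and lower in the Nkx2-1 gate (-0.90) and the Foxp2 gate (-0.51). Its call in the Sst gate (0.29) was lost under 3 of 12 alternatives, among them without fasted 2 (adjusted p up to 0.0892).

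Of the beta subunits, which every GABA-A receptor of the usual kind holds, Gabrb2 was high in the Nkx2-1 gate and Gabrb1 in the Dnah5 gate. Gabrb2 held 744, 364, 543 and 596 CPM in the Nkx2-1 gate of fed 2, fed 3, fasted 1 and fasted 2. In the Sst gate it held 102, 177, 166, 115 and 201 CPM in the order fed 1 to 3 and fasted 1 and 2. Of the other gates, only the Rarb gate reached the lowest Nkx2-1 library, with 371 CPM in fed 2. Gabrb2 was 2.36-fold higher in the Nkx2-1 gate (log2 1.24, SE 0.113) and lower in the Sst gate (-0.77) and the Dnah5 gate (-0.66). Smaller differences in the Prkcd gate (-0.43) and the Rarb gate (0.37) did not pass in the 3 fed libraries alone (adjusted p = 0.0886 and 0.119). Gabrb1 averaged 2308 ± 274 CPM in the Dnah5 gate (n = 5) against 1230 CPM in the other gates (log2 0.98). It was also higher in the Sst gate (0.46) and lower in the Nkx2-1 gate (-0.63), the Foxp2 gate (-0.60) and the Rarb gate (-0.34).

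The gamma subunits anchor receptors at synapses. Gabrg3 held 2062, 2414, 2158, 2303 and 2392 CPM in the Foxp2 gate of fed 1 to 3 and fasted 1 and 2. In the Nkx2-1 gate it held 779, 581, 781 and 526 CPM in fed 2, fed 3, fasted 1 and fasted 2, and in the Sst gate between 549.7 and 857 CPM. No library of another inhibitory gate reached the Foxp2 values, the nearest being 2055 CPM in the Calcrl gate, and those of the Nkx2-1 and Sst gates lay below all others. Gabrg3 was higher by 0.90 in the Foxp2 gate (SE 0.0702), 0.60 in the Rarb gate and 0.56 in the Calcrl gate, and lower in the Nkx2-1 gate (-1.22, SE 0.0983) and the Sst gate (-0.93). Each of these calls held under all alternatives.

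Gabrg1 held 226, 317, 205, 252 and 267 CPM in the Calcrl gate of fed 1 to 3 and fasted 1 and 2. In the Foxp2 gate it held 27.7, 97.3, 83.1, 94.4 and 110.0 CPM, and in the Nkx2-1 gate 40.2, 85.6, 106 and 99.3 CPM for the libraries from fed 2 on. The Foxp2 and Nkx2-1 libraries lay below those of all other inhibitory gates except 1 Rarb library (fasted 1, 96.5 CPM). The differences were -1.21 (SE 0.195) in the Nkx2-1 gate, -1.001 (SE 0.147) in the Foxp2 gate, 0.79 in the Calcrl gate, 0.51 in the Prkcd gate and 0.48 in the Dnah5 gate, and each held under all alternatives. Gabrd, the delta subunit of extrasynaptic receptors, held 35.4, 30.2, 55.6, 45.3 and 27.2 CPM in the Rarb gate of fed 1 to 3 and fasted 1 and 2. These libraries lay above all those of the Prkcd, Sst, Nkx2-1 and Tac1 gates and overlapped with the Calcrl, Dnah5 and Foxp2 gates. Gabrd was 3.20-fold higher in the Rarb gate (log2 1.68, SE 0.198). Its calls in the Calcrl gate (1.04) and the Dnah5 gate (0.90) were lost with thinned nuclei, the former also in the fed libraries alone and the latter also with stricter gates or without fed 3, with adjusted p up to 0.328 and 0.981.

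**Figure D2:**
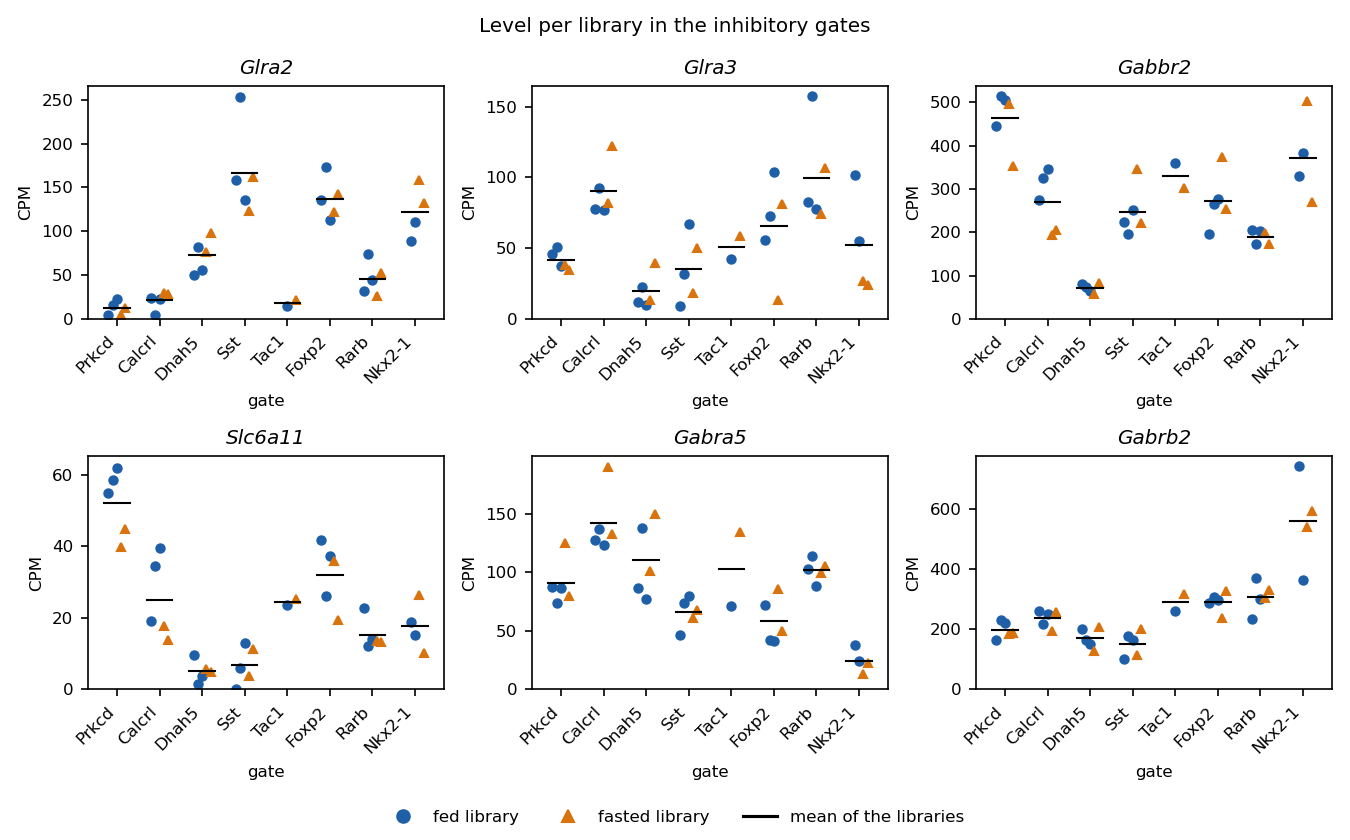
Level in CPM of 6 genes in each inhibitory gate, with 1 point per library (circles for fed, triangles for fasted) and a bar at the mean of the libraries. Glra2 is high in the Sst, Foxp2 and Nkx2-1 gates, the Gabbr2 libraries of the Dnah5 gate all lie between 57.2 and 83.2 CPM, and Gabra5 is lowest in the Nkx2-1 gate.

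Several GABA-A subunit genes lie next to one another in the genome (GRCm39). On chromosome 5, Gabrg1 (70906506 to 70999960), Gabra2 (71114573 to 71253662), Gabra4 (71721738 to 71815722) and Gabrb1 (71815456 to 72319431) form 1 cluster, in which the last gene lies on the plus strand and overlaps Gabra4 by its first bases. On chromosome 7, Gabrg3 (56366213 to 57036936) neighbours Gabra5 (57055164 to 57240831), both on the minus strand. Over the 8 inhibitory gates, the mean levels of Gabra2 and Gabrg1 moved together most closely of the cluster pairs (Pearson r = 0.974, Spearman rho = 0.905), followed by Gabra2 and Gabrb1 (r = 0.803). Gabra5 and Gabrg3 gave r = 0.624 (Spearman rho = 0.333). The 7 pairs within a cluster had a median r of 0.62 and all 325 pairs of -0.04. Within a cluster r went down to 0.150 (Gabra4 and Gabrg1). Between a gene of one cluster and a gene of the other, r ran from -0.2145 (Gabrb1 and Gabrg3) to 0.847 (Gabra2 and Gabra5). High values were thus not limited to neighbours. Gabrg1 also went with Shisa7 (r = 0.925), which lies elsewhere on chromosome 7. Gad1 and Gad2 gave r = -0.04, and Gabbr1 and Gabbr2 r = -0.663. These values are a description of 8 points that come from the same 5 libraries.

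The subunits of the GABA-B receptor, of which Gabbr1 binds GABA and Gabbr2 couples to the G protein, parted in the Dnah5 gate. Gabbr2 held 79.4, 74.4, 63.5, 57.2 and 83.2 CPM there in fed 1 to 3 and fasted 1 and 2. In the Prkcd gate the libraries gave 446, 515, 504.5, 496 and 354 CPM. The Dnah5 libraries lay below those of each other inhibitory gate, the nearest at 172 CPM in the Rarb gate, and the Prkcd libraries lay above those of the Calcrl, Dnah5, Rarb and Sst gates. Gabbr2 was lower in the Dnah5 gate by 1.99 on the log2 scale (log2 -1.99, SE 0.133) and 2.00-fold higher in the Prkcd gate (SE of the log2 value 0.0940). Calls in the Nkx2-1 gate (0.55) and the Rarb gate (-0.38) were lost with stricter gates, the former also with thinned nuclei, with adjusted p up to 0.109 and 0.235. Gabbr1 was higher in the Dnah5 gate, at 299.7 ± 37.5 CPM (n = 5) against 215 CPM in the other gates (log2 0.52). Its call in the Nkx2-1 gate (-0.47) was lost under 3 of 12 alternatives, among them without fasted 2 (adjusted p up to 0.382).

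The glycine receptor subunits Glra2 and Glra3 bind glycine and assemble with the beta subunit Glrb, and they were highest in different gates. Glra2 held 158, 253, 136, 123 and 162 CPM in the Sst gate of fed 1 to 3 and fasted 1 and 2. In the Prkcd gate it held 4.02, 16.3, 23.1, 4.42 and 12.1 CPM. The Sst libraries overlapped with those of the Foxp2 gate (113 to 173 CPM) and the Nkx2-1 gate (88.4 to 159 CPM), and all 3 lay far above the Prkcd, Calcrl and Tac1 gates. Glra2 was higher in the Sst gate by 1.94 (SE 0.186) and the Foxp2 gate by 1.63 (SE 0.179) on the log2 scale, and lower in the Prkcd gate (-2.14, SE 0.299) and the Calcrl gate (-1.41, SE 0.282). The Nkx2-1 call (1.26) was lost with thinned nuclei or in the fed libraries alone (adjusted p up to 0.0584), and the Dnah5 call (0.64) without fasted 1 or fasted 2 and in the fed libraries alone (adjusted p up to 0.350). With stricter gates the Dnah5 difference vanished (log2 -2.35e-05). After thinning, 41.5 ± 7.65% of nuclei in the Sst gate had a Glra2 UMI (SD, n = 5), against 3.56 ± 3.13% in the Prkcd gate and 4.58 ± 4.22% in astrocytes. The Prkcd share was thus no higher than that of astrocytes, which were assumed here to show the level of free RNA. Low expression in the Prkcd gate was not told apart from free RNA. Without thinning the shares were 63.1%, 13.0% and 5.13%. By level, Glra2 averaged 12.0 CPM in the Prkcd gate, 13.4 CPM in astrocytes and 6.92 CPM in precursors.

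Glra3 held 82.5, 157, 77.7, 74.1 and 107 CPM in the Rarb gate of fed 1 to 3 and fasted 1 and 2. In the Dnah5 gate it held 12.0, 22.2, 10.1, 13.4 and 39.6 CPM. The Rarb libraries and those of the Calcrl gate (77.0 to 122 CPM) lay above all Dnah5 libraries. Glra3 was higher in the Rarb gate by 1.12 (SE 0.165) and the Calcrl gate by 0.95 (SE 0.197) on the log2 scale and lower in the Dnah5 gate (-1.46, SE 0.276). Its call in the Foxp2 gate (0.57) was lost under 5 of 12 alternatives, among them without fed 1, fed 3 or fasted 2 (adjusted p up to 0.461). Glrb passed with small differences in the Calcrl gate (-0.31) and the Prkcd gate (-0.26), which were lost under 8 and 7 of 12 alternatives, among them without fed 3, fasted 1 or fasted 2 and in the Calcrl gate also without fed 2, with adjusted p up to 0.648 and 0.624.

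Gphn, the gephyrin scaffold that holds GABA-A and glycine receptors at the membrane, averaged between 921 and 1092 CPM over the 8 gates and passed in none. Lhfpl4, which brings GABA-A receptors to neuroligin, averaged between 75.6 and 95.6 CPM and also passed in none. Shisa7, an auxiliary protein of GABA-A receptors, held 112, 232, 265 and 139 CPM in the Nkx2-1 gate of fed 2, fed 3, fasted 1 and fasted 2. In the Calcrl gate it held 447, 433, 528, 427 and 419 CPM in the order fed 1 to 3 and fasted 1 and 2. The Nkx2-1 libraries overlapped with those of the Foxp2 and Tac1 gates and lay below those of the other 5. Shisa7 was lower in the Nkx2-1 gate (-1.09, SE 0.115) and the Foxp2 gate (-0.55) and higher in the Calcrl gate (0.55), the Dnah5 gate (0.54) and the Prkcd gate (0.48). The call in the Rarb gate (0.22) was lost under 6 of 12 alternatives, among them without fed 2, fasted 1 or fasted 2 (adjusted p up to 0.262). Nlgn2, the neuroligin of inhibitory synapses, was called lower in the Prkcd gate (-0.24) only, a call lost under 9 of 12 alternatives, among them leaving out any 1 library, that turned to 0.05 with thinned nuclei.

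Of the chloride transporters, Slc12a5 exports chloride from neurons and Slc12a2 brings it in. Slc12a5 was lower in the Prkcd gate, at 147 ± 27.9 CPM (n = 5) against 217 CPM in the other gates (log2 -0.53), and higher in the Rarb gate (0.29). Its calls in the Dnah5 gate (-0.46) and the Nkx2-1 gate (0.33) were lost under 1 (thinned nuclei) and 6 of 12 alternatives (among them without fed 2, fasted 1 or fasted 2), with adjusted p up to 0.202 and 0.547. Slc12a2 was called higher in the Nkx2-1 gate (0.42) and the Rarb gate (0.28), and these were lost under 10 and 7 of 12 alternatives, among them without any 1 library in the Nkx2-1 gate and any but fasted 2 in the Rarb gate (adjusted p up to 0.642 and 0.748).

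A second list of 26 partner genes, which act with the 28 genes as scaffolds, receptor trafficking and GABA-B auxiliary proteins or in the metabolism and transport of glutamine, glutamate and glycine, was tested in the same way. Of these, 22 had enough counts, and 12 passed in the Dnah5 gate (54.5%, against 26.7% of all genes tested), 12 in the Nkx2-1 gate (54.5% against 27.2%), 11 in the Calcrl gate (50% against 22.3%) and 11 in the Prkcd gate (50% against 30.7%). In the Rarb gate 8 passed (36.4% against 17.9%), in the Sst gate 7 (31.8% against 10.4%) and in the Tac1 gate 2 (9.09% against 4.45%). The Foxp2 gate had 4 (18.2%), near its share of all genes of 19.1%. Slitrk3, an adhesion molecule of inhibitory synapses, was lowest in the Prkcd gate, at 3.50 ± 2.11 CPM against 38.9 ± 14.3 CPM in the Nkx2-1 gate (log2 -2.49 for the Prkcd gate). Mdga1, which binds neuroligin, averaged 90.7 ± 26.4 CPM in the Foxp2 gate and 8.50 ± 9.26 CPM in the Prkcd gate (log2 1.96 for the Foxp2 gate). Kctd8, an auxiliary subunit of the GABA-B receptor, averaged 65.7 ± 38.5 CPM in the Dnah5 gate and 699 ± 121 CPM in the Nkx2-1 gate, with differences of -1.93 and 1.79. The Dnah5 gate was thus low in both Gabbr2 and Kctd8.

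The 52 nuclei of the Slc17a7 gate, which marks excitatory neurons, showed how these genes stand outside inhibitory cells. In 4 libraries with at least 10 such nuclei, 15 of 26 genes passed against the inhibitory gates, 3 higher and 12 lower, where 24.9% of all 9947 genes tested passed (14.2% higher and 10.6% lower). Gad2 held 3.49, 23.7, 7.80 and 17.7 CPM there in fed 2, fed 3, fasted 1 and fasted 2, against a mean of 328 CPM over the inhibitory gates, a difference of -4.75 on the log2 scale (SE 0.236). Gad1 differed by -4.33, and Slc32a1 had 2 UMIs, a ratio of 0.0847 to its pooled inhibitory level with an exact 95% counting interval from 0.0103 to 0.306. Abat (-2.13), Gabrg1 (-2.12), Gabrg3 (-0.82) and Shisa7 (-0.61) were also lower. Gabbr2 was the highest of the 3 that rose, with 912, 1180, 1022 and 969 CPM in the 4 libraries, all above the highest inhibitory library of 515 CPM, and a difference of 2.14 (SE 0.103). The other calls, higher for Gabra3 (0.60) and Nlgn2 (0.54) and lower for Glra2 (-2.12), Aldh5a1 (-1.15), Gabra5 (-0.80), Gabbr1 (-0.63) and Gabrb1 (-0.38), were each lost under 1 to 5 of 12 alternatives. Leaving out fed 2 was enough for Nlgn2 (adjusted p up to 0.870), Aldh5a1 (0.367) and Gabra5 (0.747), fed 3 for Gabra3 (0.398), and fasted 2 for Gabra5 and Gabrb1 (0.325). With thinned nuclei 8 genes passed in all, while the calls among all genes went from 1416 higher and 1058 lower to 464 and 442. The second markers Neurod6 and Tbr1 were low in this gate, at 16.9 and 5.10 CPM. Of the partner genes, 13 of 21 passed (61.9%, against the 24.9% of all genes).

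In astrocytes (427 nuclei), 22 of the 26 genes passed against the inhibitory gates, 7 higher and 15 lower, where 57.7% of all 10122 genes tested passed (30.8% higher and 26.9% lower). Slc6a11 held 501, 327, 369, 357 and 314 CPM in fed 1 to 3 and fasted 1 and 2, and each of these lay above the highest inhibitory library of 62.0 CPM. The difference was 4.31 on the log2 scale (SE 0.136). Gabrb1 averaged 4198 ± 582 CPM (n = 5) and was higher by 1.67, Gabbr2 by 1.27, Gphn by 1.06, Gabbr1 by 0.65 and Glrb by 0.64. Abat was higher by 0.36, a call lost under 3 of 12 alternatives, among them without fasted 1 (adjusted p up to 0.270). Shisa7 was lower by 3.74 on the log2 scale (log2 -3.74) and Slc12a5 by 2.21 (log2 -2.21). Gad1 and Gad2 still averaged 34.4 and 50.0 CPM, above the 9.33 and 13.2 CPM of the excitatory gate, and the part of free RNA or of doublets in these values was not tested.

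In oligodendrocytes (152 nuclei), 24 of the 26 genes passed, 4 higher and 20 lower (43.7% of all genes passed, 19.4% higher and 24.2% lower). Slc12a2 held 887, 747, 552, 439.6 and 827 CPM there, each above the highest level of 72.6 CPM in the inhibitory gates, and was 13.4-fold higher (log2 3.74, SE 0.131). Gabbr1 (0.45), Gphn (0.34) and Glrb (0.54) were also called higher, and these were lost under 3, 5 and 6 of 12 alternatives, in each case also without fed 2 (adjusted p up to 0.168, 0.176 and 0.442). Scaling by the median ratio of genes moved the median of all genes by 0.118 in this contrast. In oligodendrocyte precursors (95 nuclei), 21 genes passed, 3 higher and 18 lower (40.1% of all genes passed, 19% higher and 21.1% lower). Nlgn2 averaged 154 ± 40.4 CPM there (n = 5) and was higher by 1.33 (SE 0.158). Slc12a2 (0.75) and Glrb (0.48) were lost under 4 and 8 of 12 alternatives, in both cases also without fed 3 or fasted 2 (adjusted p up to 0.197 and 0.216). Gabrd had 0 of 724926 UMIs in the precursors, which allows a level of up to 4.14 CPM (3 counts), and its call was lost without fasted 2 and in the fed libraries alone (adjusted p up to 1). Of the 67 calls in the 3 glial gates, 46 held under all alternatives. The other 21 did not hold under at least 1, and 1 of these changed sign. Not all of them are named here. Of the partner genes, 17 of 21 passed in astrocytes (81.0%, against 57.7% of all genes), 14 in oligodendrocytes (66.7% against 43.7%) and 12 in precursors (57.1% against 40.1%).

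**Figure D3:**
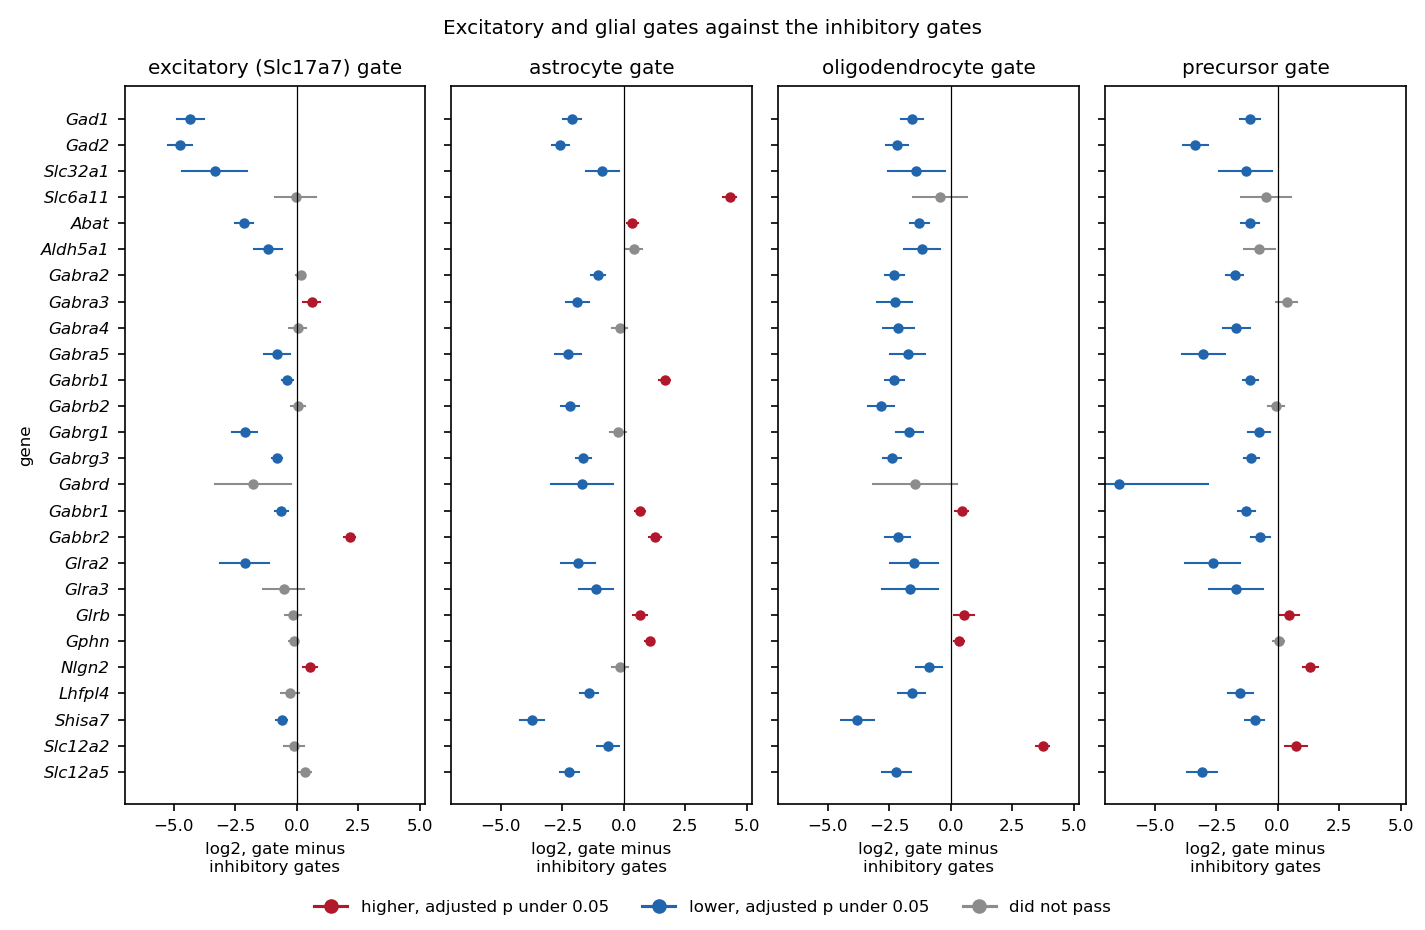
Log2 difference of the excitatory, astrocyte, oligodendrocyte and precursor gates (panels) from the inhibitory gates for 26 genes (rows), with 95% intervals. Red points passed as higher, blue as lower and grey did not pass; Slc6a11 in astrocytes (4.31) and Slc12a2 in oligodendrocytes (3.74) lie farthest to the right. Intervals that run below -7 end at the edge of the axis.

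Fasting was compared first over all inhibitory neurons, which gave the deepest sums. None of the 28 genes passed (edgeR quasi-likelihood test, 0.00739% of all 13523 genes passed), 1 had an unadjusted p under 0.05 against 5.42% of all genes, and DESeq2 and the likelihood ratio test also gave 0. The differences ran from -0.40 for Gabre to 0.28 for Slc32a1 on the log2 scale, 11 above 0 and 17 below. For 18 of the 28 genes the 95% interval lay within -0.5 and 0.5, and for 27 it lay within -1 and 1. Gad1 held a mean of 138.8 CPM in the fed libraries and 138.8 CPM in the fasted libraries, and Gad2 287 and 284 CPM. The gene with the unadjusted p under 0.05 was Slc6a11, at 30.5, 24.9 and 26.6 CPM in fed 1 to 3 and 21.1 and 21.2 CPM in fasted 1 and 2. The fasted libraries lay below the fed ones without overlap, with a difference of -0.38 (95% interval -0.71 to -0.06) that did not pass (adjusted p = 0.781). The summed astrocyte markers in these neurons ran the other way, from 16.9 to 24.6 CPM in fed and from 35.3 to 40.7 CPM in fasted libraries, as did the oligodendrocyte markers (17.2 to 22.8 and 35.0 to 36.6 CPM). Their part in the fasting values was not tested. The make-up of gates in this sum can also differ between libraries. The Prkcd gate, where Slc6a11 was highest of the inhibitory gates, held 75, 61 and 126 nuclei in fed 1 to 3. The inhibitory neurons there numbered 1022, 850 and 1279. In fasted 1 and 2 the gate held 83 and 99 nuclei, beside 1542 and 1399 inhibitory neurons. The part of this make-up in the Slc6a11 difference was not tested. With the preparation batch as a block, still none of the 28 genes passed. The batch was inferred from the replicate number (1 and 2 each hold a fed and a fasted library), which leaves fed 3 alone in its batch. At an unadjusted p under 0.05 there were 4. The share of all genes at that p in the block fit is not given, so this count is not read as a result about the 28 genes. The number of all genes that passed went from 1 to 222 higher and 57 lower.

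**Figure D4:**
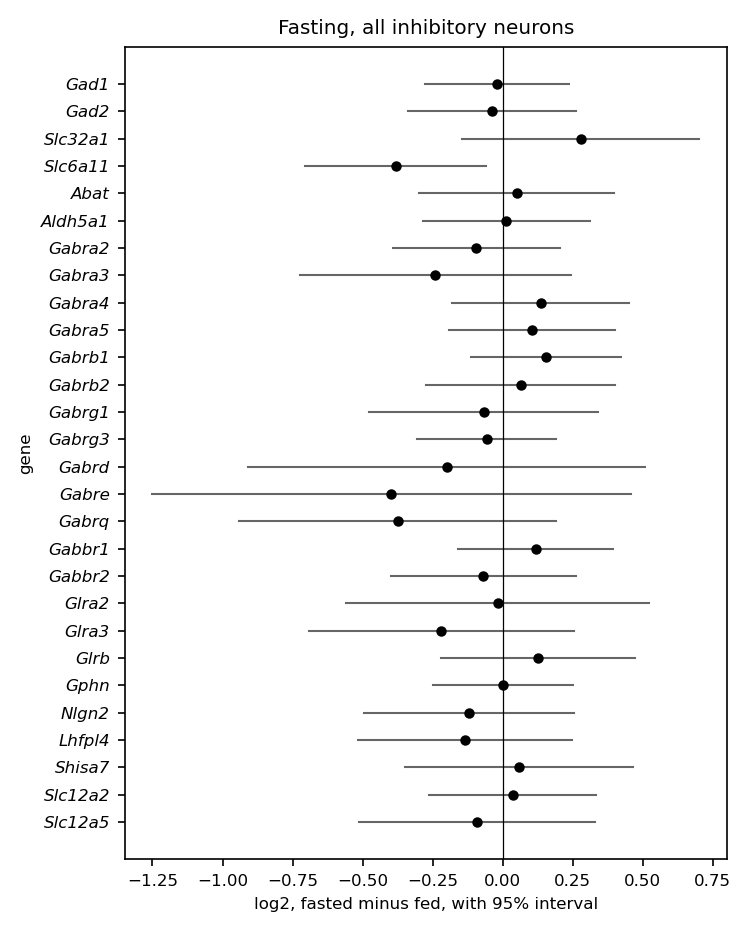
Log2 difference between fasted and fed libraries over all inhibitory neurons for the 28 genes (rows), with 95% intervals. No gene passed, and 27 of the 28 intervals lie within -1 and 1.

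Within single gates, 9 gates had at least 10 nuclei in each library and gave 196 gene and gate pairs. None passed, while the share of all genes that passed ran from 0% in the Astrocyte, Calcrl, Oligodendrocyte and Sst gates to 0.00947% in the Rarb, 0.0434% in the Prkcd, 0.0455% in the Foxp2, 0.157% in the precursor and 0.201% in the Dnah5 gate. DESeq2 and the likelihood ratio test gave 0 as well, and so did the fit with the preparation batch as a block. The block raised the pairs at an unadjusted p under 0.05 to 19, given without the share of all genes in that fit. The calls among all genes went from 29 to 443 higher and 183 lower. Without the block, 5 pairs had an unadjusted p under 0.05 (2.55%, against 5.31% over all genes). Of these, Gabbr2 in the Calcrl gate held 274, 326 and 346 CPM in fed 1 to 3 and 193 and 206 CPM in fasted 1 and 2, without overlap, a difference of -0.65 (95% interval -1.06 to -0.24, adjusted p = 0.547). Slc6a11 differed by -1.11 in the Calcrl gate and by -0.48 in the Prkcd gate (adjusted p = 0.762 and 0.694). In the Prkcd gate its fed libraries (54.9 to 62.0 CPM) lay above the fasted ones (39.8 and 44.8 CPM). Gabrb1 in precursors (0.77) and Slc12a2 in astrocytes (1.12) made up the 5. Over the 6 inhibitory gates, 128 of 153 pairs had a 95% interval within -1 and 1, so that 2-fold changes in either direction lay outside those intervals.

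Whether fasting acted differently in 1 gate than in the other inhibitory gates was tested directly. None of 156 pairs passed, where 0.0862% of all 9286 genes passed in the Dnah5 gate and 0% in the others, and 8 pairs had an unadjusted p under 0.05 (5.14% of the pairs of all genes). The lowest of these p-values belonged to Gabbr2 in the Calcrl gate, whose fasting effect differed from that of the other gates by -0.66 (95% interval -1.04 to -0.27, adjusted p = 0.728). Among the partner genes, none passed in a fasting comparison either. Glul, the glutamine synthetase of astrocytes, averaged 12.4 ± 3.96 CPM in fed and 32.0 ± 7.77 CPM in fasted inhibitory neurons (adjusted p = 0.337) and 743 CPM in the astrocyte gate.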

How the data were processed

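The authors made 3′ single-nucleus libraries, aligned them to GRCm39 with intronic reads included (Cell Ranger 5.0.0 per the file headers; the labels name Cell Ranger 2.1.1 and mm10) and deposited raw UMI counts per gene and barcode, which were used as deposited. The 28 genes, the partner list and the gates were chosen with earlier results of these data known.

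Nuclei were kept with 500 to 8000 genes and under 0.8% mitochondrial UMIs. The gates required at least 2 UMIs of Slc17a7, 1 of Nkx2-1, 5 of Foxp2, 5 of Rarb, 3 of Prkcd, 3 of Calcrl, 3 of Sst, 2 of Dnah5 with 1 of Vipr2, or 2 of Tac1. Neurons and glia were told apart by summed marker UMIs per 10000. Nuclei with the Calcrl or the Dnah5 and Vipr2 counts were kept out of the Prkcd gate, and those with the Nkx2-1 or the Dnah5 and Vipr2 counts out of the Sst gate. Nuclei that still met several gates were left out, and no doublet caller was run. Counts were summed per gate and library (at least 10 nuclei) and tested with edgeR 4.0.16 in R 4.3.3 (quasi-likelihood test, TMM, filterByExpr, Benjamini-Hochberg over all genes tested, threshold 0.05). Contrasts between gates used the library as a block, and fed against fasted used the feeding state alone. CPM is relative to all UMIs of a gate in a library, and levels are not compared between genes. Values are given per library for the 12 genes with the largest contrasts between inhibitory gates, and means for the 3 such partner genes. Intervals on single counts cover counting error only. Where the feeding state alone was fitted, p-values measure the spread between libraries of the same feeding state. Where the library was a block, they measure the spread of the sums left after gate and library were fitted. That spread was estimated over all gates of the fit together.

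A figure legend of the study numbers its datasets by preparation batch, and the replicate numbers of the libraries were taken to follow it. Deviations of same-numbered libraries from their group means correlated across genes with r = 0.361 and 0.536 over all inhibitory neurons. Over all gates checked r ran from 0.0534 to 0.536. Same-numbered libraries were also close in median UMIs per nucleus, at 8326 and 6608 for fed 1 and fasted 1. For fed 2 and fasted 2 the medians were 14886 and 16367. The part of depth in the correlations was not tested. A fit with the replicate number as a block was an alternative. The other alternatives were DESeq2 1.42.0, the likelihood ratio test, RLE size factors, no filter on low counts, at least 1000 genes per nucleus, nuclei thinned to 4000 UMIs, stricter gates (1 UMI more), the fed libraries alone, and leaving out each library. Thinning left out the nuclei with fewer than 4000 UMIs, 65 to 242 per library. Calls lost with thinned nuclei therefore reflect fewer nuclei as well as less depth. On simulated counts the test recovered 88% of genes changed 4-fold and 53% changed 2-fold for fasting in the Prkcd gate. It recovered 92% and 69% over all inhibitory neurons, and 88% and 68% for the Prkcd gate against the others. Of the calls, 8.44%, 9.55% and 4.88% were false, so both fasting values lay above the threshold of 0.05. The simulations changed far more genes than the 4 that passed for fasting in the Prkcd gate or the 1 over all inhibitory neurons. More changed genes ease the adjusted threshold, so recovery for fasting in the data may be lower.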

Additional observations from a re-analysis of the deposited data

How the results depend on the processing

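The counts of genes that passed per comparison, summed over the inhibitory gates and given singly for the other gates, stayed within 1.5 times of the values reported in all alternatives but 2. With nuclei thinned to 4000 UMIs, 8 genes passed in the excitatory gate (15 as reported) and 15 in oligodendrocytes (24 as reported), with 25 tested in each. Nuclei with fewer than 4000 UMIs were left out there, and oligodendrocytes had a median of 1525 to 4489.5 UMIs over the libraries. In the 3 glial gates together, the calls among all genes went from 7009 higher and 7307 lower to 4397 and 3934 with thinning. The counts of single inhibitory gates moved by more than 1.5 times in 3 gates. The Nkx2-1 gate (16 as reported) had 8 with thinned nuclei and 10 in the fed libraries alone. The Sst gate (8 as reported) had 5 with thinned nuclei, with stricter gates, in the fed libraries alone and without fasted 2. The Tac1 gate (2 as reported) had 4 with no filter on low counts, 1 with thinned nuclei, and 0 in the fed libraries alone and without fasted 2, each of which leaves it 1 library whose spread is taken from the other gates. When each library was left out in turn, 76 to 87 of the gene and gate pairs passed across the inhibitory gates, 13 to 15 genes in the excitatory gate, 19 to 22 in astrocytes, 18 to 24 in oligodendrocytes and 18 to 20 in precursors. Fasting gave 0 calls in each of these, within gates, over all inhibitory neurons and as a difference between gates. With the replicate block, which pairs fed and fasted libraries of the same replicate number, these 3 fasting comparisons also gave 0. With scaling by RLE size factors, the median of all genes moved by 0.118 in oligodendrocytes, 0.0982 in precursors and 0.0652 in astrocytes, and the glial calls went from 14 higher and 53 lower to 15 and 51. The Nkx2-1, Tac1 and excitatory gates were too small in some libraries for a fasting comparison. All alternatives were listed together at the start and none was added.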
